A study of Mus musculus with 16 samples.

Results

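The genes described here are 10 genes that mark the macrophages of the splenic red pulp or take part in their handling of iron and of dying cells: *Spic*, *Adgre1*, *Cd163*, *Vcam1*, *Hmox1*, *Slc40a1*, *Slc11a1*, *Trf*, *Axl* and *Mertk*. They were chosen by symbol from a table of estimated counts for 54838 gene identifiers, and all 10 were found. RNA was sequenced from 16 spleen samples of C57BL/6 mice. In 8 of them, labelled spleen glia by source and size-selected by title, the minced spleen was digested with enzymes, its red blood cells were lysed, and the RNA came from what a cell strainer then retained. The other 8 are labelled whole spleen, and the labels repeat the same protocol for them without a preparation of their own. No genotype, treatment or age is given, all samples share the strain, and each group holds 4 male and 4 female samples. The same 8 numbers (407, 408, 427 and 435 for males, 436, 445, 447 and 460 for females) occur in each group. No label says that a number is an animal, so p-values measure the spread between these samples. The study set out to find genes enriched in splenic glia, and for the genes described here the comparison asks where their RNA was higher, in the retained material or in the whole organ.

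Red pulp macrophages take up old and damaged red blood cells, break down their haemoglobin and return the iron to the blood. Heme is opened by heme oxygenase 1 (*Hmox1*), which releases iron, carbon monoxide and biliverdin. The iron leaves the phagosome through transporters such as Nramp1 (*Slc11a1*), leaves the cell through ferroportin (*Slc40a1*) and travels in plasma bound to transferrin (*Trf*). The transcription factor Spi-C (*Spic*) is required for these macrophages to form and is itself induced by heme. Dying cells are recognised through bridging proteins that join exposed phosphatidylserine to receptor tyrosine kinases, among them Axl and Mer (*Mertk*).

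Promoter sequence is shown for *Spic*, whose change did not pass the test, and for *Axl* and *Mertk*, whose RNA rose. RefSeq sequences (GRCm38.p6, 250 bases before to 50 after the start site) were found for 5 of the 10 genes, these and *Slc11a1* and *Cd163*. The windows are chr10:88682974-88683273 on the minus strand for *Spic*, chr7:25788684-25788983 on the minus strand for *Axl* and chr2:128698665-128698964 on the plus strand for *Mertk*. In the *Axl* sequence, capitals mark the match to GAGGAAG, the binding sequence shared by PU.1 and Spi-C, which lies on the reverse strand and so reads CTTCCTC.
Spic: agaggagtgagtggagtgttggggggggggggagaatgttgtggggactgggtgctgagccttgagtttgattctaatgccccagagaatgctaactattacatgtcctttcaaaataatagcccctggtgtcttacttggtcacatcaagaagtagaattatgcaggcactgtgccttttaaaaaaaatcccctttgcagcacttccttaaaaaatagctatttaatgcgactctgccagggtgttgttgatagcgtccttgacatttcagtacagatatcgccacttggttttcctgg
Axl: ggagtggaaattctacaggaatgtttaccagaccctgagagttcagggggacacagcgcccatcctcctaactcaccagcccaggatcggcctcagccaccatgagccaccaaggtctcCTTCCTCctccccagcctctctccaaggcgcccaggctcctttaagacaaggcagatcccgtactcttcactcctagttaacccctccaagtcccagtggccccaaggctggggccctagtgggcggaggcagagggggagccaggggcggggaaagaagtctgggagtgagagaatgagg
Mertk: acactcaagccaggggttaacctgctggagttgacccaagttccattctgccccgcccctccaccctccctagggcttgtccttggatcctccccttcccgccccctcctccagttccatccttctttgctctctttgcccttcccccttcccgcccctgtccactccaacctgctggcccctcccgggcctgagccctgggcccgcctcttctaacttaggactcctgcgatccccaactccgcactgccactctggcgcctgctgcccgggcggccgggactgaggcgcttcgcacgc
GAGGAAG was searched on both strands and occurs in 13.6% of the 32851 RefSeq promoters of this length. Its match in *Axl* begins at position -131 from the start site. The *Slc11a1* window held AGGTCA, an element that nuclear receptors bind, at position -143, as 16.3% of all promoters do on either strand. TGANTCA, a core of Maf and AP-1 sites found in 7.81% of promoters, and TGACNNNGC, an antioxidant response core found in 12.4%, had no match in the 5 windows. None of the 4 motifs occurred in the *Spic*, *Mertk* or *Cd163* window. GENCODE M21 extends *Spic* upstream of the RefSeq start used here.

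Totals ran from 13119992 to 19944440 estimated counts in the size-selected samples and from 12153770 to 16282454 in whole spleen. Levels are given as CPM, estimated counts scaled to a common library size after TMM adjustment of the totals. In the size-selected columns, but in no whole spleen column, the values of 3898 genes are 2-decimal counts multiplied by up to 3 constants below 1 per column, called low (0.659 to 0.789), middle (0.770 to 0.858) and high (0.889 to 0.964). *Spic*, *Hmox1*, *Cd163*, *Adgre1* and *Mertk* carry the middle constant, *Vcam1* the high and *Slc40a1* the low, *Axl* carries the middle and the high, and *Slc11a1* and *Trf* carry none. Values are therefore given as deposited and, where it matters, on counts restored by division by the constants. By markers, whole spleen held summed B cell RNA of 5024 to 6301 CPM and the size-selected samples 819 to 3093 CPM. Glial markers summed to 1.80 to 6.53 CPM in whole spleen and 73.5 to 616.5 CPM in the size-selected samples, and fibroblast markers to 5.02 to 57.6 CPM against 1061 to 3664 CPM.

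Of the 10 genes, 8 were higher in the size-selected samples and none was lower (edgeR quasi-likelihood test, Benjamini-Hochberg adjusted p under 0.05). Of all 14510 genes tested, 67.9% were called, with 37.5% of the tested genes higher and 30.4% lower, so a call is common in this comparison. Restored counts again gave 8 of 10 higher (37.6% of all genes tested were), and restored counts with the number as a replicate block gave 10 of 10 (38.1%). The median log2 fold change of the 10 genes was 1.13, beside 0.05 over all genes tested. *Mertk* and *Vcam1* rose the most and *Adgre1* the least of the called genes. On deposited counts *Spic* and *Hmox1* lay within the spread of samples, with and without the block. In bulk RNA, fewer cells of a type and less RNA per cell cannot be told apart.

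**Figure D1:**
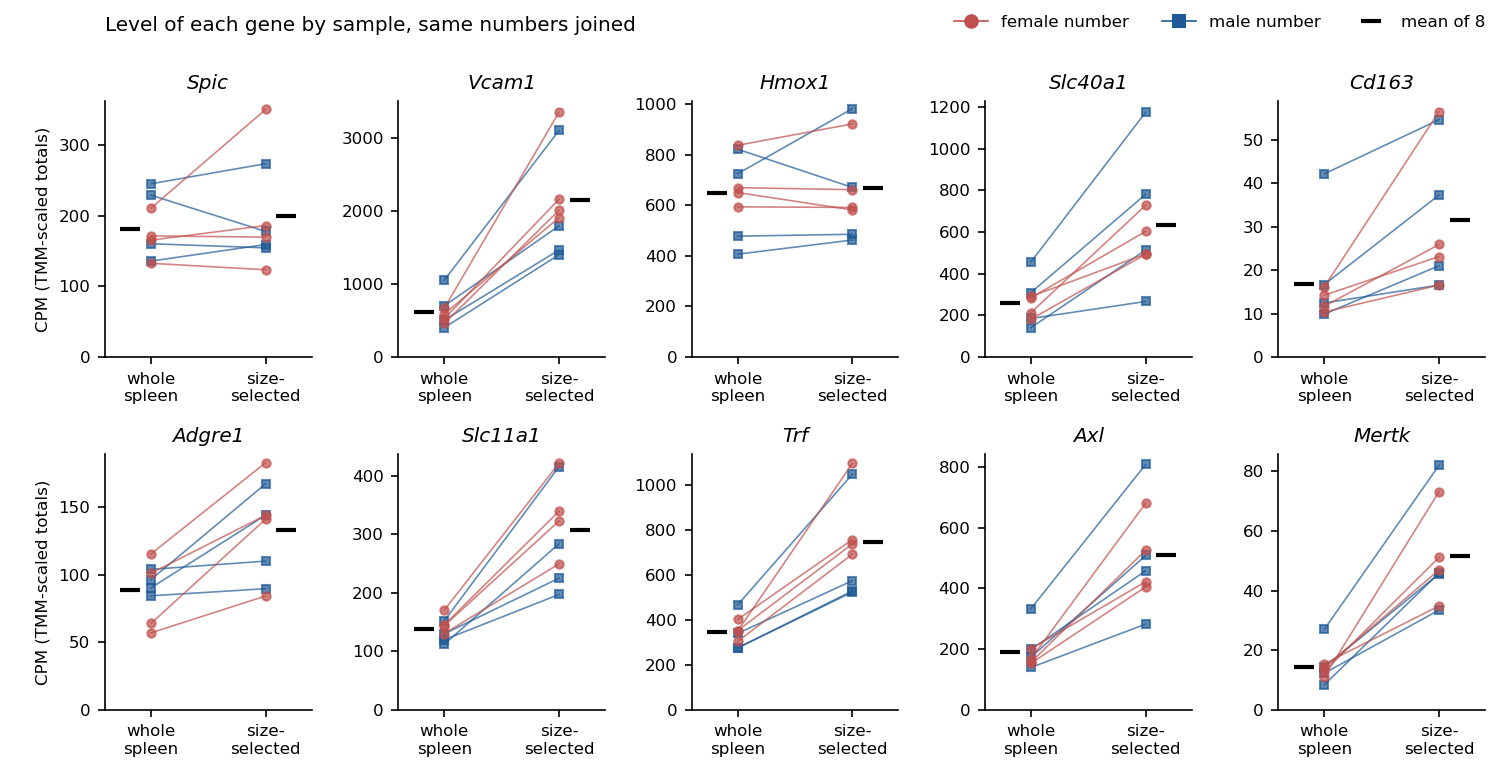
Level of each of the 10 genes in CPM (vertical axis, from 0) in 8 whole spleen and 8 size-selected samples, with points for samples and lines joining the same number. All 8 lines rise for 8 genes, while for *Spic* and *Hmox1* 4 of the 8 rise.

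*Spic* (ENSMUSG00000004359, chromosome 10, 88674772 to 88685015, minus strand, GENCODE M21 on GRCm38, as for all positions here) encodes the factor that sets the identity of red pulp macrophages. Its level ran from 133 through a median of 168.5 to 245 CPM in whole spleen and from 124 through 174 to 351 CPM in the size-selected samples. The ranges overlapped, and 4 of 8 numbers were higher in the size-selected sample, number 460 the most (211 against 351 CPM). The means were 181 ± 42.2 and 199.5 ± 74.9 CPM (SD, n = 8 each), and the log2 fold change of 0.14 (SE 0.19) did not pass (edgeR adjusted p = 0.543). On restored counts *Spic* was higher in 7 of 8 numbers, with a log2 fold change of 0.39 (edgeR adjusted p = 0.0899). Restored counts fitted with the number as a replicate block gave 0.34 (SE 0.11), which passed (edgeR adjusted p = 0.0154). Neither the restored counts nor the block gave that call alone.

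*Adgre1* (ENSMUSG00000004730, chromosome 17, 57358691 to 57483527, plus strand) encodes the surface receptor recognised by the F4/80 antibody, found on most tissue macrophages of the mouse. It ran from 57.0 through a median of 93.3 to 115 CPM in whole spleen and from 84.3 through 143 to 183 CPM in the size-selected samples. The ranges overlapped, yet the size-selected sample was the higher in all 8 numbers, by 1.06 times in the closest (408) and 2.21 times in the widest (460). The rise of *Adgre1* was 0.58 on the log2 scale (SE 0.17, edgeR adjusted p = 0.00595), or 0.82 on restored counts. In males only it was 0.38 and did not pass (edgeR adjusted p = 0.133).

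*Cd163* (ENSMUSG00000008845, chromosome 6, 124304656 to 124330527, plus strand) encodes the scavenger receptor for haemoglobin bound to haptoglobin. Whole spleen held 9.88 to 42.1 CPM with a median of 13.3, and the size-selected samples 16.5 to 56.4 CPM with a median of 24.5. Whole spleen sample 427 stood far above the other 7 whole spleen samples, which reached 16.7 CPM. In the size-selected samples, numbers 427 and 460 were highest, and all 8 numbers were higher there than in whole spleen. The log2 fold change was 0.92 (SE 0.33, edgeR adjusted p = 0.0193). Its call was lost without number 460 (0.73, edgeR adjusted p = 0.0726) and in males only (0.61, edgeR adjusted p = 0.334), and it held on restored counts (1.16, edgeR adjusted p = 0.00455).

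*Vcam1* (ENSMUSG00000027962, chromosome 3, 116109949 to 116129688, minus strand) encodes a cell adhesion molecule that is used as a surface marker of red pulp macrophages and is also made by stromal and endothelial cells. It ran from 402.5 through a median of 557 to 1055 CPM in whole spleen and from 1404 through 1963 to 3359 CPM in the size-selected samples. The groups did not overlap, and each number was higher in the size-selected sample by between 2.56 times (435) and 5.02 times (460). The means of 614 ± 205 and 2153 ± 717 CPM (SD, n = 8 each) gave a rise of 1.81 on the log2 scale (SE 0.21, edgeR adjusted p = 5.19e-07), or 1.89 on restored counts. An antisense gene, *Gm43109*, shares 61 exon bases with *Vcam1* and averaged 0 CPM in whole spleen and 0.00914 CPM in the size-selected samples. Endothelial markers, summed over 5 genes, went from between 62.9 and 122 CPM to between 406 and 973.5 CPM in the same samples, with all 5 genes called higher, and their part in the rise of *Vcam1* was not tested.

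*Hmox1* (ENSMUSG00000005413, chromosome 8, 75093621 to 75100589, plus strand), the heme oxygenase gene, ran from 406 through a median of 659 to 836.5 CPM in whole spleen and from 462 through 626 to 981 CPM in the size-selected samples. The ranges lay almost on top of each other, and 4 of 8 numbers were higher in the size-selected sample. With means of 647 ± 152 and 669 ± 189.5 CPM (SD, n = 8 each), the log2 fold change was 0.05 (SE 0.17, edgeR adjusted p = 0.818). Restored counts placed 7 of 8 numbers higher and gave 0.30 (edgeR adjusted p = 0.145). With the replicate block added the value was 0.28 (SE 0.09) and passed (edgeR adjusted p = 0.0109). *Spic* and *Hmox1*, the genes called in no fit on deposited counts, carry the middle constant. *Cd163*, *Adgre1* and *Mertk*, which were called higher on deposited counts, carry it too.

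*Slc40a1* (ENSMUSG00000025993, chromosome 1, 45908068 to 45926523, minus strand) encodes ferroportin, the only known exporter of iron from cells. Whole spleen held 141 to 456 CPM with a median of 249, and the size-selected samples 267 to 1175 CPM with a median of 558.5. Sample 427 was the highest of each group, and the ranges overlapped, as 4 whole spleen samples lay above the size-selected sample of 408. Each number was higher in the size-selected sample, from 1.44 times in 408 to 3.64 times in 407. Its rise of 1.29 on the log2 scale (SE 0.26, edgeR adjusted p = 0.000265) became 1.71 on restored counts, the largest shift among the 10 genes, since it carries the low constant.

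*Slc11a1* (ENSMUSG00000026177, chromosome 1, 74375195 to 74386062, plus strand) encodes Nramp1, which moves iron and manganese out of the phagosome. It was the steadiest of the 10 genes in whole spleen, from 112 through a median of 137 to 170.4 CPM, and ran from 197 through 303 to 422 CPM in the size-selected samples. The groups did not overlap. *Slc11a1* rose by 1.15 (SE 0.15, edgeR adjusted p = 1.58e-06), and its 1.10 on restored counts differs only through the scaling, as it carries no constant.

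*Trf* (ENSMUSG00000032554, chromosome 9, 103204001 to 103230444, minus strand) encodes transferrin, the iron carrier of plasma. Its range was 275 to 466 CPM in whole spleen, with a median of 345, and 523 to 1095 CPM in the size-selected samples, with a median of 714. No whole spleen sample reached the lowest size-selected sample. The log2 fold change was 1.11 (SE 0.16, edgeR adjusted p = 8.9e-06), and 1.05 on restored counts. A same-strand gene, *Gm20425*, covers 63.5% of the exon bases of *Trf*, so the split of reads between them is uncertain, although *Gm20425* was assigned only 0.0972 CPM in whole spleen and 0.269 CPM in the size-selected samples.

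*Axl* (ENSMUSG00000002602, chromosome 7, 25757273 to 25788705, minus strand) and *Mertk* (ENSMUSG00000014361, chromosome 2, 128698956 to 128802894, plus strand) encode receptor tyrosine kinases through which macrophages recognise and engulf dying cells. *Axl* ran from 139 through a median of 171 to 333 CPM in whole spleen and from 282 through 483 to 808 CPM in the size-selected samples. Only whole spleen sample 427 reached into the size-selected range, and on restored counts the groups did not overlap. *Axl* rose by 1.42 (SE 0.20, edgeR adjusted p = 5.56e-06), and by 1.80 on restored counts, where both of its constants are removed. *Mertk* was at 8.40 to 27.0 CPM in whole spleen with a median of 13.5 and at 33.5 to 82.1 CPM in the size-selected samples with a median of 46.5. Its groups did not overlap, and number 460 showed the widest gap, at 6.63 times. *Mertk* rose by 1.84 (SE 0.23, edgeR adjusted p = 8.43e-07), and by 2.08 on restored counts.

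**Figure D2:**
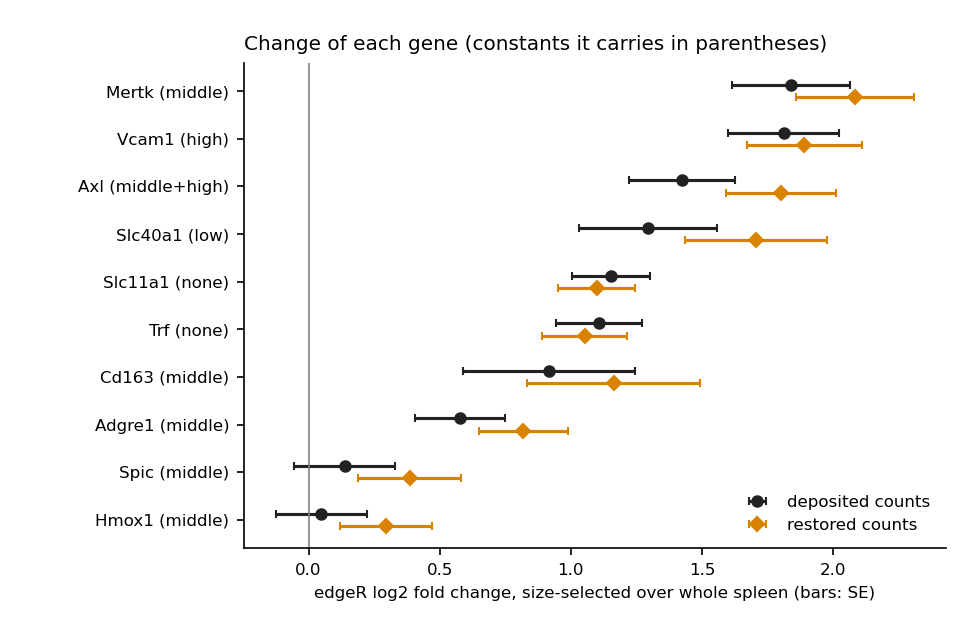
edgeR log2 fold change (horizontal axis, size-selected over whole spleen) of each gene with its standard error, on deposited counts (circles) and restored counts (diamonds), and the constants each gene carries in parentheses. *Mertk* (1.84) and *Vcam1* (1.81) lie highest and *Spic* (0.14) and *Hmox1* (0.05) next to 0, and restoring shifts *Slc40a1* furthest, to 1.71.

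Set against *Spic* within each sample, the other genes separated into those that moved with it and those that moved beyond it. A ratio within a sample does not depend on the scaling between samples. The log2 ratio of *Hmox1* to *Spic* changed by -0.06 ± 0.26 (SD, n = 8 numbers), rising in 3 of 8, and was thus flat within the spread. The ratios of the other 8 genes rose in all 8 numbers. That of *Adgre1* rose the least, by 0.47 ± 0.15, and that of *Cd163* by 0.83 ± 0.40. *Trf* gained 0.98 ± 0.17 and *Slc11a1* 1.02 ± 0.24 over *Spic* as deposited, and 0.68 and 0.73 on restored counts. *Slc40a1* gained 1.18 ± 0.38, *Axl* 1.32 ± 0.27, *Vcam1* 1.71 ± 0.24 and *Mertk* 1.76 ± 0.38 (each SD, n = 8). On restored counts *Slc40a1* gained 1.33, *Axl* 1.44 and *Vcam1* 1.54. *Hmox1*, *Cd163*, *Adgre1* and *Mertk* carry the same constant as *Spic*, so their ratios are the same on deposited and restored counts. These ratios are a description and were not tested.

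**Figure D3:**
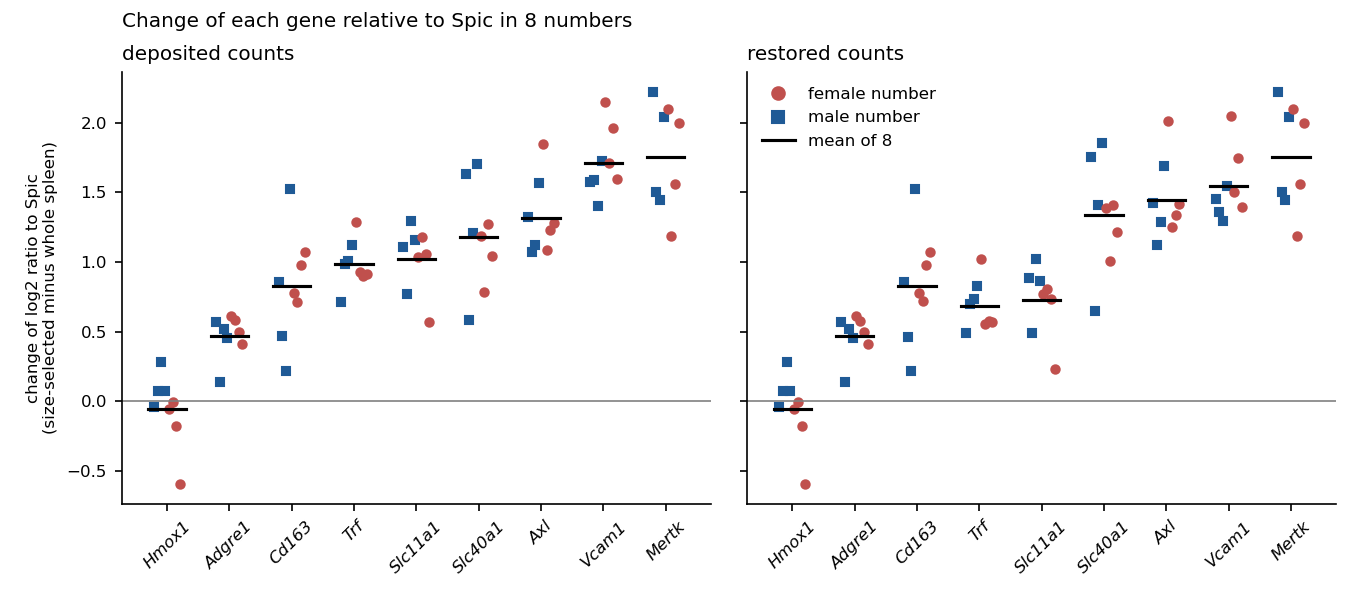
Change from whole spleen to the size-selected sample in the log2 ratio of each gene to *Spic* (vertical axis), with 1 point per number, for deposited and restored counts. All points lie above 0 except those of *Hmox1*, of which 3 of 8 do.

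Per length of merged exons, *Hmox1* was the most abundant of the 10 genes in each group, at 369.6 ± 86.9 CPM per kb in whole spleen and 382 ± 108 CPM per kb in the size-selected samples (SD, n = 8 each). In whole spleen it was followed by *Trf* at 104 ± 19.55 CPM per kb, *Vcam1* at 69.2 ± 23.1 CPM per kb and *Spic* at 47.2 ± 10.99 CPM per kb. *Hmox1* exceeded *Trf*, *Trf* exceeded *Vcam1* and *Vcam1* exceeded *Spic* in all 8 samples. *Axl* and *Slc11a1*, at 37.9 and 37.2 CPM per kb, were in that order in 4 of 8 samples, and *Slc40a1* and *Adgre1*, at 28.6 and 27.5 CPM per kb, in 5 of 8, so neither of these neighbours differed beyond the spread. *Mertk*, at 3.33 CPM per kb, and *Cd163*, at 3.06 CPM per kb, were the least abundant, apart from all others but not from each other. In the size-selected samples *Vcam1* stood second at 243 ± 80.9 CPM per kb, above *Trf* at 224 ± 66.6 CPM per kb in 6 of 8 samples. *Spic* went from the fourth place to the seventh, at 51.9 ± 19.5 CPM per kb, below *Axl* (102 CPM per kb), *Slc11a1* (82.9 CPM per kb) and *Slc40a1* (70.2 CPM per kb). It lay below *Slc40a1* in 6 of 8 samples and above *Adgre1* in 5 of 8, so it did not differ from *Adgre1* beyond the spread. On restored counts *Slc40a1* (91.5 CPM per kb) and *Slc11a1* (78.2 CPM per kb) exchanged places there, with 4 of 8 samples in that order, and the other places were the same.

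The samples of number 427 and number 460 carried most of the high values. Whole spleen sample 427 had the highest level of 7 of the 10 genes and sample 407 the lowest of 6. Among the size-selected samples, 460 was highest for 5 genes and 427 for 4, and 408 was lowest for 6. Whole spleen sample 427 also had the highest summed fibroblast markers of its group (57.6 CPM, the others 5.02 to 22.7) and endothelial markers (122 CPM, the others 62.9 to 80.6), and of the macrophage lineage genes (2649 CPM, the others 2033 to 2443). Among the size-selected samples, 460 and 427 had the highest sums of macrophage lineage genes (6061 and 5233 CPM, the others 2862 to 4007), and 427 the highest sum of dissociation genes (8571 CPM, the others 4349 to 6625). The part of these in the levels of the 10 genes was not tested. Leaving out whole spleen sample 427 changed no call of the 10 genes.

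Other genes of heme and iron handling were called in each direction. Of 25 genes listed, 23 passed the count filter, 10 were higher, 5 were lower and 8 were not called, with a median log2 fold change of 0.14 (0.48 on restored counts, with 13 higher and 5 lower). Of all genes tested, 37.5% were higher and 30.4% lower, so these counts are read as no result about the list. The genes of the ferroxidases, which oxidise exported iron so that transferrin can bind it, rose most: *Heph* by 6.37 (SE 0.57, edgeR adjusted p = 1.42e-08), from 0.199 ± 0.304 to 16.5 ± 7.67 CPM, and *Cp* by 4.75 (SE 0.34, edgeR adjusted p = 1.31e-09), from 4.22 ± 2.48 to 112.5 ± 50.7 CPM (SD, n = 8 each). *Lrp1*, a large endocytic receptor that takes up heme bound to hemopexin, rose by 2.05, and *Slc48a1*, which moves heme out of the phagolysosome, by 0.93. *Slc11a2*, the related metal transporter of endosomes, rose by 0.97, close to the 1.15 of *Slc11a1*. *Tfrc*, the transferrin receptor, had -0.43 (edgeR adjusted p = 0.06), and -0.02 on restored counts. Of the biliverdin reductases, which act after heme oxygenase, *Blvra* had 0.14 and *Blvrb* -0.20, neither called on deposited counts. *Blvra* passed as higher on restored counts (0.39, edgeR adjusted p = 0.0228), and *Blvrb* as lower on restored counts with the replicate block (-0.27, edgeR adjusted p = 0.0492). The genes that fell furthest were *Hp*, encoding the haptoglobin that CD163 binds, at -1.40, and the iron chaperone genes *Pcbp2*, at -1.33, and *Pcbp1*, at -0.66. Hemopexin itself (*Hpx*) had 0 counts in all 8 whole spleen samples and at most 0.277 CPM in the size-selected samples.

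Genes for the clearance of dying cells rose in 12 of 16 cases, with none lower and a median of 2.55, where 37.5% of all genes tested were higher and 30.4% lower. The genes of both bridging proteins had larger fold changes than those of the receptors, a difference that was not tested. *Gas6*, the ligand of Axl, Mer and Tyro3 alike, went from 5.06 ± 3.73 to 179 ± 79.4 CPM (log2 fold change 5.15, SE 0.38, edgeR adjusted p = 1.7e-09). *Pros1*, encoding protein S, went from 6.77 ± 3.62 to 168.5 ± 58.0 CPM (4.65, SE 0.29, edgeR adjusted p = 3.06e-10; SD, n = 8 each). *Tyro3*, the remaining receptor, rose by 2.49, from 0.750 ± 0.363 to 4.26 ± 1.69 CPM (SD, n = 8 each). *Mfge8*, encoding a bridging protein that binds integrins, rose by 5.39 and *Dock1*, a regulator of the cytoskeleton in engulfment, by 4.73. Rises above that of *Tyro3* were also seen for *Stab1* (4.00), *Stab2* (3.76), *Timd4* (3.21) and *Cd36* (2.61), which encode receptors for phosphatidylserine or other ligands on dying cells. The 4 genes not called were *Cd47*, *Elmo1*, *C1qb* and *C1qc*, of which *C1qb* was higher with the replicate block (0.36, edgeR adjusted p = 0.0275), but not with the block on restored counts (0.30, edgeR adjusted p = 0.0516).

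Of 18 other genes listed for the macrophage lineage, its growth factors included, 10 were higher, 2 were lower and 6 were not called. Their median was 0.68, beside the same 37.5% higher and 30.4% lower of all genes tested. In males only, 1 of the 18 was called lower, where 2799 of 14642 genes tested were lower. The growth factors of the lineage rose most, *Il34* by 6.53 and *Csf1* by 4.80, and their receptor *Csf1r* rose by 1.92, from 373 ± 135 to 1407 ± 493 CPM (SD, n = 8 each, edgeR adjusted p = 3.54e-07). *Itgad*, an integrin subunit of red pulp macrophages, rose by 1.16 and *Treml4* by 0.65. *Cd5l*, encoding a secreted protein of tissue macrophages, had 0.31 (edgeR adjusted p = 0.123), and it passed with the replicate block (0.28, edgeR adjusted p = 0.0285) and on restored counts (0.55, edgeR adjusted p = 0.00883). The other genes not called were *Cd68*, *Pparg*, *Fcgr1*, *Cd14* and *Fcgr4*, from -0.00407 to 0.41. *Spi1*, encoding PU.1, fell by 0.76 on the log2 scale (0.51 on restored counts) and *Irf4*, which is also high in B cells, fell by 0.71. Of 4 genes listed for marginal zone macrophages 3 rose, *Siglec1* by 4.37, *Marco* by 2.72 and *Cd209b* by 2.53. *Cd209a*, the remaining gene of that list, had -0.54 (edgeR adjusted p = 0.253) and was lower with the replicate block (-0.70).

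Markers of other cell types moved with the fraction in each direction, where 37.5% of all genes tested were higher and 30.4% lower. Higher were all 7 fibroblast genes (median 7.24), all 5 endothelial genes (5.06), all 5 smooth muscle genes (6.49) and all 8 glial genes that passed the filter, of 9 listed (7.16). Lower were all 4 B cell genes (median -1.12), all 4 T cell genes (-1.73) and all 5 neutrophil genes (-1.74), and 5 of 7 erythroid genes (-1.77). In males only, 2 of the 4 B cell genes and 2 of the 5 neutrophil genes were called lower, where 2799 of 14642 genes tested were lower. With the replicate block all 7 erythroid genes were lower, on deposited and on restored counts, whereas restored counts without the block called 3. Monocyte genes split, with 2 of 5 higher (*Cx3cr1* 2.45, *Itgam* 1.28) and 3 lower (*Ly6c2* -1.71, *Plac8* -1.48, *Ccr2* -0.80). Dendritic cell genes did too, with *Zbtb46* higher (1.87) and *Clec9a* (-1.15), *Flt3* (-0.89) and *Xcr1* (-0.63) lower. Of 10 genes induced by tissue dissociation, 8 were higher and 1 lower (none lower on restored counts), their sum going from between 1812 and 2759 CPM to between 4349 and 8571 CPM. The part of these cell types and of dissociation in the values of the 10 genes was not tested.

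Over 9306 genes whose log2 CPM averaged 3 or more, those lying nearest to *Spic* over the 16 samples, by the root mean square difference of centred log2 CPM, were *Il1b* (0.202), *Hilpda* (0.214) and *Cd5l* (0.222). Nearest to *Slc40a1* were *Itgad* (0.244), *Mrc1* (0.294), the mannose receptor gene, and *Axl* (0.299). Nearest to *Vcam1* were *Sirpa* (0.224), a receptor for CD47 on macrophages, *Abcc3* (0.230) and *Epb41l3* (0.233). These distances depend on the deposited constants, which *Il1b*, *Hilpda*, *Itgad*, *Mrc1*, *Sirpa*, *Abcc3* and *Epb41l3* do not carry.

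No difference between females and males was found in the 10 genes. With edgeR, 0 of 10 were called in whole spleen, where 0.194% of 13383 genes were, with log2 differences (female over male) from -0.64 for *Cd163* to 0.19 for *Slc11a1*. In the size-selected samples 0 of 10 were called, where 0.0397% of 15127 genes were, and differences ran from -0.24 to 0.29. For the change between fractions, a difference between the sexes was called for 0 of 10 (0.0% of 15760 genes), with values from -0.10 to 0.55. At an unadjusted p under 0.05 the counts were 0, 0 and 0 in these comparisons, and DESeq2 and limma-voom also called 0. These ranges moved with the number left out. In whole spleen they ran from -0.87 to 0.13 without 407, from -0.81 to 0.16 without 408 and from -0.17 to 0.29 without 427, each with 1 of the 10 genes at an unadjusted p under 0.05. In the size-selected samples they ran from 0.10 to 0.54 without 427, with 3 genes at such a p, but from -0.58 to 0.11 without 460 and from -0.50 to 0.20 without 408, with 0 genes. The direction by sex there thus depended on which number was left out, and edgeR called 0 of 10 in each of these fits. On simulated counts the fits by sex recovered 98.5% of genes changed by 2 on the log2 scale in each fraction and the interaction fit 77%, and smaller changes were not simulated. The calls of *Cd163* and *Adgre1* lost in males only are not evidence of a difference.

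The authors' deposited table lists 2201 genes, none with a log2 fold change under 3.5, and none of the 10 genes is in it. It does list the ferroxidase, bridging and growth factor genes named above. In the authors' deposited table the log2 fold change is 4.12 for *Cp*, 5.15 for *Gas6*, 4.61 for *Pros1*, 5.41 for *Mfge8*, 4.90 for *Csf1* and 5.97 for *Il34*.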

How the data were processed

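RNA of 8 size-selected and 8 whole spleen samples was compared. The submitters' processing notes name Trim Galore, STAR, RSEM, DESeq and the build mm10, with no versions. The annotation is not given in the sources used here. Values of the first deposited table are estimated counts per gene and sample, unnormalized, per the file headers and values. A second deposited table, the authors' own comparison, gives log2 fold changes, per the file headers. Its other columns were not used here.

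Of 54838 identifiers, 54809 were in GENCODE M21. Counts were rounded and fitted with edgeR 4.0.16 in R 4.3.3 (filterByExpr with a minimum count of 10, TMM, quasi-likelihood test, group only, Benjamini-Hochberg over all genes tested, calls at an adjusted p under 0.05). Sex was compared within each fraction and as an interaction. Alternatives were the tools DESeq2 1.42.0 and limma-voom (limma 3.58.1), scaling by RLE or by library totals, a stricter count filter or none, a covariate for sex, a replicate block by number, each sex alone, restored counts, and leaving out each number or whole spleen sample 427. Restored counts with the block, and restored counts for ratios and levels per length, were chosen after seeing the data. Constants were found from the values alone, and no label or file header mentions them. They explain every value above 0 in the size-selected columns, with 0 genes unexplained.

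Same-numbered samples deviated together across genes (mean r 0.21, 0.12 to 0.38, over 0.1 in 8 of 8 pairs). Different numbers had a mean r of -0.03 (-0.33 to 0.23, over 0.1 in 12 of 56 pairs), so the ranges overlapped. Samples were paired by the shared number in the labels. CPM uses TMM-scaled totals, and likeness used log2 CPM with a prior count of 2. Fits were tested on simulated counts holding log2 changes of 2. The fraction fit recovered 100% of 199 changed genes among 14845 tested, with 9 unchanged genes among 208 calls.

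The 10 genes and all lists were chosen with earlier results of these data known. Named from each other list are up to 3 called genes with the largest rise and 3 with the largest fall, and genes whose role pairs them with one of the 10, except results not reported here. Other genes named were chosen after their values were seen.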

Additional observations from a re-analysis of the deposited data

Results flagged for a closer look

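*Cd163* and *Axl* each had a whole spleen sample far from the other 7. In whole spleen sample 427 the log2 CPM of *Cd163* was 5.40, with the other 7 samples between 3.32 and 4.07, and the gap was 0.640 of the whole range. For *Axl* that sample had a log2 CPM of 8.38, with the others between 7.12 and 7.65 and a gap of 0.580 of the range. Both gaps exceed Dixon's limit for 8 samples. Of 20 groups of 8 values screened, 2 had such a sample, and chance gives about 1 in 20.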

How the results depend on the processing

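*Vcam1*, *Slc40a1*, *Slc11a1*, *Trf*, *Axl* and *Mertk* were called higher in all 21 alternatives, *Adgre1* in 20, *Cd163* in 19, and *Spic* and *Hmox1* in 1. *Hmox1* changed sign without a count filter (-0.012), without replicate 427 (-0.0249, with a range up to 0.101 over the numbers left out) and in females only (-0.00493), as did *Spic* in males only (-0.0823). None of these values passed, and their cause was not tested. The replicate block gave 10076 calls over all genes against 9855 and changed no call of the 10 genes on deposited counts. Among the 136 genes tested of all lists, the 10 included, it added calls for 6, of which 3 were higher, and lost none. Library totals raised the median log2 fold change of all genes from 0.05 to 0.18, a shift of 0.13, and called 6041 genes higher and 3442 lower against 5446 and 4409. Genes called for sex in whole spleen numbered 26, but 273 without a count filter, 518 with DESeq2 and 7 to 261 on leaving out each number (261 without 427). In the size-selected samples they numbered 6, and 22 with DESeq2. For the interaction they numbered 0, but 3 with DESeq2, 3 with the replicate block, 3 with the block on restored counts and 0 to 1 on leaving out each number. None of the 10 genes was among any of these calls for sex. For *Vcam1*, the interaction with the block was 0.48 (edgeR adjusted p = 0.717) and alone of the 10 genes had an unadjusted p under 0.05. Erythroid genes called lower numbered 5, and 0 (females only) to 7 (either fit with the block) over the settings. How the constants arose and how whole spleen was prepared are not given in the sources used here.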

Other observations

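*Hmox1*, which heme induces, can be set beside the red cell RNA of each whole spleen sample. Summed over 7 erythroid genes, that RNA ran from 473 CPM in sample 436 to 24140 CPM in sample 435. In falling order of that RNA, sample 435 held 821 CPM of *Hmox1* and 229 CPM of *Spic*. Sample 427 (13950 CPM of erythroid RNA) held 724 and 245 CPM, and sample 447 (9731 CPM) held 593 and 165.5 CPM. Sample 445 (9647 CPM) held 669 and 171.5 CPM, and sample 408 (5691 CPM) held 477.5 and 160.4 CPM. Sample 407 (2281 CPM) held 406 and 136 CPM, sample 460 (1656 CPM) held 836.5 and 211 CPM, and sample 436 held 650 and 133 CPM. Sample 460 had a high level of both genes at low erythroid RNA. No relation was tested.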
